A study of Mus musculus with 24 samples.

Results

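In mouse skin, 10 genes that mark the lining of vessels were followed. There were 5 blood endothelial genes (Pecam1, Cdh5, Kdr, Vwf and Sox17) and 5 lymphatic endothelial genes (Mmrn1, Lyve1, Prox1, Flt4 and Pdpn), out of 39017 gene IDs counted. The 10 genes were selected by name, and the selection was made on earlier results of these same 24 libraries in all 4 groups, so their levels and fold changes are given as a description without a test. All 10 passed the filter on low counts, as did 16248 of the genes counted. The study sequenced RNA of dorsal skin from female C3H/HeJ mice, aged about 30 weeks at termination. Alopecia areata (AA), an autoimmune loss of hair, was induced in this strain by grafting.

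There were 4 groups of 6 libraries, named here by the replicate letters A to F. The 8w off Tx group were AA mice that ate Cmpd A, an oral inhibitor selective for JAK1, at about 100 mg/kg daily for 4 weeks and were sampled 8 weeks after the last dose. The systemic JAK1i group were AA mice sampled at the end of those 4 weeks, by a biopsy from living animals. The AA group were mice with fully developed disease and no drug (the labels give no treatment, while their sample names hold the tag Vec12w), and the healthy group were mice of the same strain with no disease and no drug, both sampled at week 12. By the study's methods, the 6 mice biopsied in the systemic JAK1i group were the mice sampled again in the 8w off Tx group, but the labels do not say which library came from which mouse, and time and treatment cannot be told apart between these groups. The systemic JAK1i libraries were taken at week 4, and the AA and healthy libraries at week 12. Time of sampling, and the way skin was taken where it differed, cannot be told apart from treatment in those comparisons either. Total counts were 3444193 to 11233020 per library. Skin is a mixture of cells, and in such bulk RNA fewer cells of a type and less RNA per cell cannot be told apart.

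Blood endothelial cells line arteries, capillaries and veins, and lymphatic endothelial cells line the blind-ended vessels that drain fluid and leukocytes from the dermis. Lymphatic endothelium arises from venous endothelium when the transcription factor Prox1 is switched on, and it then depends on signals from Vegfc through the receptor Flt4 (VEGFR-3). Blood endothelium responds to Vegfa mainly through Kdr (VEGFR-2). In skin, hair growth, wound repair and inflammation are all known to be accompanied by remodelling of both kinds of vessel.

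In GENCODE M21 on GRCm38 the blood genes are protein-coding, with Pecam1 at chr11:106654217-106750628, Cdh5 at chr8:104101625-104144511, Kdr at chr5:75932827-75978458, Vwf at chr6:125546774-125686679 and Sox17 at chr1:4490931-4497354. The lymphatic genes, all protein-coding as well, are annotated with Mmrn1 at chr6:60924976-60989378, Lyve1 at chr7:110850607-110863239, Prox1 at chr1:190118035-190170714, Flt4 at chr11:49609263-49652739 and Pdpn at chr4:143267431-143299564. Of the 10 genes, 5 had a promoter in the RefSeq table for GRCm38.p6 (Kdr, Mmrn1, Flt4, Pdpn and 2 start sites of Prox1). The 250 bases before the RefSeq start are shown for the 4 of these 5 whose AA and healthy libraries did not overlap, since these genes moved together. The Kdr window reaches a few bases into its GENCODE gene, which ends at 75978458. The RefSeq starts of Mmrn1 and Flt4 lie inside the GENCODE genes given above, so their windows are within those genes and not upstream of them, far within for Mmrn1. Each runs 5′ to 3′ on the gene's own strand, and capitals mark the core letters of the ETS family of endothelial transcription factors, GGAA or its reverse complement TTCC.
Kdr, chr5:75978456-75978705, minus strand: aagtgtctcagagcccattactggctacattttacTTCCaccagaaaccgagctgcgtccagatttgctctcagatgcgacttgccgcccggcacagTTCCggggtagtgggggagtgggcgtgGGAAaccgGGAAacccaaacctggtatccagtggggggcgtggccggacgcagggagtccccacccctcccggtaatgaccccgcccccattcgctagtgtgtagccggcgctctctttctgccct
Flt4, chr11:49609429-49609678, plus strand: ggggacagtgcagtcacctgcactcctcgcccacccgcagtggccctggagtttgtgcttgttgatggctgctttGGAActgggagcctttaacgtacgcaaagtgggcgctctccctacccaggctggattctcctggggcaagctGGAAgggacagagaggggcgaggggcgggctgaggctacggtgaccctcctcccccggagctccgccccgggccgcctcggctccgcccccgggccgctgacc
Mmrn1, chr6:60944067-60944316, plus strand: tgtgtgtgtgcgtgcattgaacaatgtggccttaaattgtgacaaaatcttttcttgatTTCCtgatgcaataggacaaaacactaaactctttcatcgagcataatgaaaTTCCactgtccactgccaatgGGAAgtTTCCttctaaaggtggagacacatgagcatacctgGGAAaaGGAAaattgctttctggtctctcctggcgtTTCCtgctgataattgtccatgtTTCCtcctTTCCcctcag
Prox1, the upstream start, chr1:190170828-190171077, minus strand: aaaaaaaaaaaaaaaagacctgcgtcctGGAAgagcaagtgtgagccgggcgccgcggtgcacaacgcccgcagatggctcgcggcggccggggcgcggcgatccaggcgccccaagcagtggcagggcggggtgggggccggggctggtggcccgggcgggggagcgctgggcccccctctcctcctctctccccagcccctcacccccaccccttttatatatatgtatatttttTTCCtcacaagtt
The Mmrn1 window, within the GENCODE gene, held 9 matches, Kdr 4, Flt4 2 and this Prox1 window 2, while the downstream Prox1 start had 5 and Pdpn 3. Among 32851 RefSeq windows of this length, 93.4% held at least 1 match to GGAA on either strand, the median was 3 and 8.7% held 6 or more. The SOX motif AACAAT was found in the Mmrn1 window, where it is left in lower case, and in 9.4% of all windows. These are matches of letters and not bound sites.

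Blood endothelial genes were lower in AA skin than in healthy skin. Pecam1, an adhesion molecule at endothelial junctions that platelets and leukocytes also carry, had 34.0, 28.7, 31.8, 23.4, 40.2 and 16.4 CPM (counts scaled to the size of each library by TMM factors) in AA libraries A to F, against 67.4, 41.3, 77.2, 79.3, 57.3 and 93.5 CPM in healthy libraries. Every AA library lay below every healthy library, although AA E and healthy B were only about 1 CPM apart. How many of all genes separated or overlapped in this way was not counted, for this or any later comparison. Cdh5, the cadherin that holds endothelial cells together, had 20.4, 14.5, 24.5, 10.6, 16.1 and 6.61 CPM in AA libraries, against 27.6, 24.8, 45.1, 42.3, 25.1 and 46.1 CPM in healthy libraries. Again the groups met without crossing, AA C being next to healthy B. Kdr had 20, 13.6, 31.8, 8.26, 15.6 and 6.87 CPM in AA libraries, against 54.2, 34.3, 67.3, 57.6, 48.6 and 72.9 CPM in healthy libraries. Its log2 fold change of -1.79 ± 0.25 (SE of the edgeR fit, as for all log2 fold changes below) was the largest of the 5 in size.

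Vwf, the clotting glycoprotein that endothelium stores and platelets also contain, had 28.2, 24.7, 24.5, 30.5, 26.7 and 17.2 CPM in AA libraries, against 43.2, 32.0, 46.1, 62.9, 43.9 and 78.5 CPM in healthy libraries. Sox17, a transcription factor of arterial endothelium, had 2.60, 1.53, 1.96, 1.61, 3.26 and 1.06 CPM in AA libraries, against 7.39, 3.51, 9.01, 5.34, 3.72 and 6.34 CPM in healthy libraries. For both genes the AA and healthy groups did not overlap. The log2 fold changes were -1.25 ± 0.18 for Pecam1, -1.17 ± 0.22 for Cdh5, -1.01 ± 0.20 for Vwf and -1.53 ± 0.26 for Sox17. All 5 blood genes were lower at an adjusted p below 0.05 over all genes, beside 19.3% of all genes called lower, and their median log2 fold change was -1.25 against 0.00 over all genes. Since the genes were chosen on these groups, the count supports nothing by itself.

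Mmrn1, Prox1 and Flt4, 3 of the 5 lymphatic genes, had larger differences between AA and healthy skin than the 5 blood genes, although Flt4 and Kdr lay within their errors. Mmrn1 (multimerin-1), a secreted protein of lymphatic endothelium that platelets also hold, had 8.71, 4.97, 12.5, 2.30, 7.82 and 2.38 CPM in AA libraries, against 43.4, 27.4, 29.2, 34.2, 42.9 and 37.6 CPM in healthy libraries. The highest AA library was below the lowest healthy library by a wide margin. Prox1 had 2.83, 0.956, 3.43, 0.689, 2.82 and 1.32 CPM in AA libraries, against 14.8, 6.68, 12.6, 12.5, 11.9 and 12.5 CPM in healthy libraries. These AA values rested on few reads, 3 to 25 per library. Flt4 had 6.22, 5.16, 9.06, 5.05, 8.04 and 3.44 CPM in AA libraries, against 32.1, 16.7, 21.3, 29.5, 24.3 and 22.5 CPM in healthy libraries. The log2 fold changes were -2.45 ± 0.27 for Mmrn1, -2.52 ± 0.29 for Prox1 and -1.98 ± 0.22 for Flt4, with no overlap between the groups for any of the 3 genes. The exons of Prox1 overlap those of Prox1os on the opposite strand, and no source used here gives the strand setting of the counting, so reads of these genes may be mixed.

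Lyve1 and Pdpn did not share this pattern. Lyve1, the hyaluronan receptor of lymphatic capillaries that tissue macrophages also carry, had 5.21, 6.50, 6.12, 3.44, 6.95 and 2.91 CPM in AA libraries, against 12.2, 3.69, 5.61, 6.33, 9.18 and 12.0 CPM in healthy libraries. The groups overlapped and the log2 fold change was -0.65 ± 0.39. Pdpn (podoplanin), which basal keratinocytes and fibroblasts make as well as lymphatic endothelium, had 10.1, 27, 24.7, 16.8, 33.9 and 12.2 CPM in AA libraries, against 15.9, 8.96, 17, 16.2, 12.2 and 18 CPM in healthy libraries. Its AA values ran both below and above the healthy ones, with a log2 fold change of 0.49 ± 0.32. Of the 5 lymphatic genes, 3 were lower and 0 higher at an adjusted p below 0.05, beside 19.3% of all genes lower and 20.9% higher, and their median log2 fold change was -1.98.

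**Figure D1:**
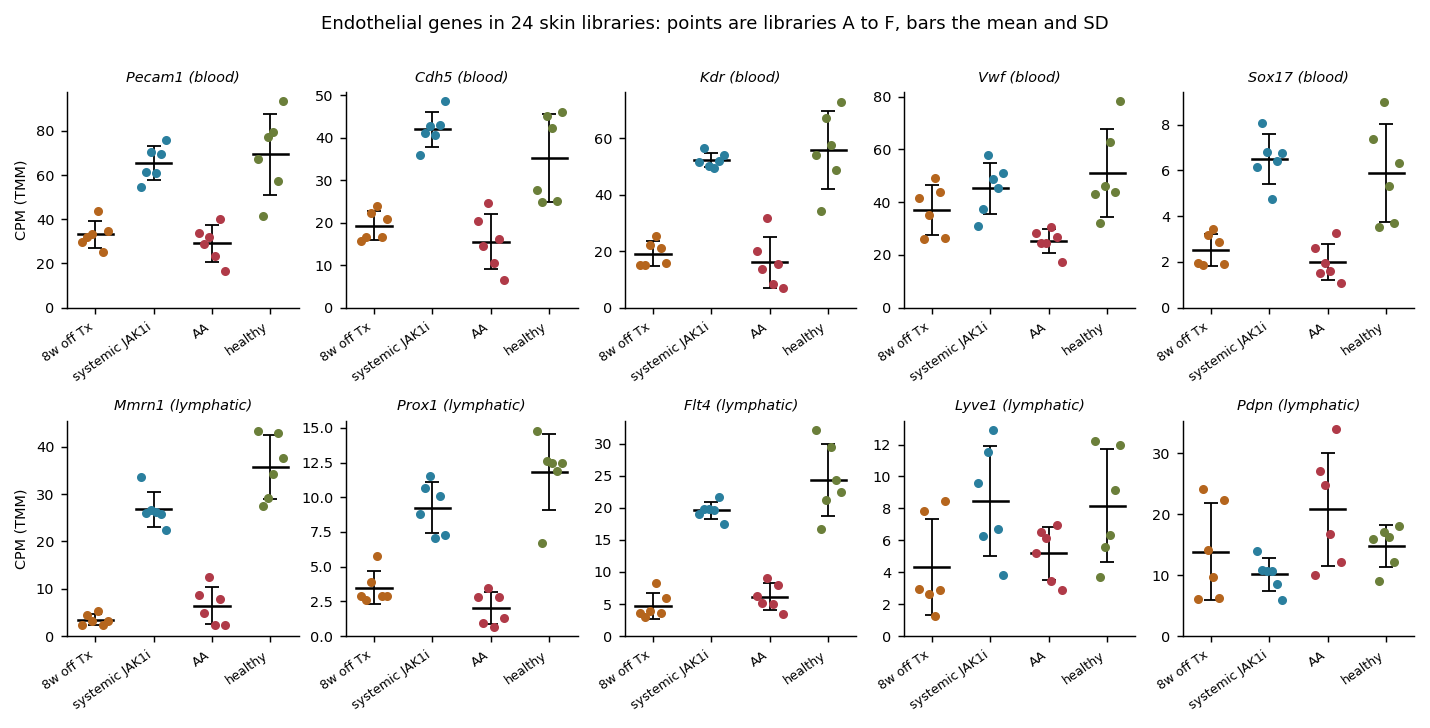
CPM of each gene in each library (points, A to F from left to right within a group), with the mean and SD of the 6 libraries as bars, for 8w off Tx, systemic JAK1i, AA and healthy skin. Mmrn1, Prox1 and Flt4 lie in a low band in 8w off Tx and AA libraries and in a high band in systemic JAK1i and healthy libraries, while Lyve1 and Pdpn overlap across all groups.

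Under systemic JAK1i the blood genes were higher than in AA. Pecam1 had 54.6, 61.6, 70.6, 60.9, 69.3 and 75.8 CPM, all above the highest AA library of 40.2 CPM. Cdh5 was at 35.8 to 48.5 CPM (median 41.8) in systemic JAK1i libraries, against 6.61 to 24.5 CPM (median 15.3) in AA libraries. Kdr was at 49.6 to 56.5 CPM, against 6.87 to 31.8 CPM in AA libraries, and its systemic JAK1i SD of 2.56 CPM was the narrowest of the 4 groups, beside 13.8 CPM in healthy skin. Sox17 was at 4.77 to 8.09 CPM, against 1.06 to 3.26 CPM in AA libraries. Vwf was at 31.1 to 57.9 CPM, against 17.2 to 30.5 CPM in AA libraries, a gap of under 1 CPM at the nearest pair. The log2 fold changes ran between 0.84 ± 0.20 for Vwf and 1.69 ± 0.24 for Kdr with a median of 1.43, and all 5 were called higher, beside 22.9% of all genes.

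Mmrn1 had 33.7, 26.1, 26.6, 26.2, 25.8 and 22.5 CPM in systemic JAK1i libraries, all above the highest AA library of 12.5 CPM. Prox1 had 8.83, 10.7, 11.5, 7.10, 10.1 and 7.28 CPM, all above the highest AA library of 3.43 CPM. Flt4 had 19, 19.9, 19.9, 19.7, 21.7 and 17.5 CPM, all above the highest AA library of 9.06 CPM. The groups were separate for all 3 genes, with log2 fold changes of 2.03 ± 0.27, 2.16 ± 0.29 and 1.66 ± 0.22 in that order. Lyve1 was at 3.8 to 12.9 CPM in systemic JAK1i libraries, against 2.91 to 6.95 CPM in AA libraries, with overlap and a log2 fold change of 0.71 ± 0.38. Pdpn ran the other way, at 5.96 to 13.9 CPM in systemic JAK1i libraries, against 10.1 to 33.9 CPM in AA libraries (log2 fold change -1.03 ± 0.32), and the groups overlapped. Of the 5 lymphatic genes, 3 were called higher, beside 22.9% of all genes, and 1 (Pdpn) lower, beside 24.8% of all genes.

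Against healthy skin, none of the 10 genes was called in systemic JAK1i skin by edgeR, beside 1.05% of all genes called in either direction. At an unadjusted p below 0.05 the count was also 0 for both sets, DESeq2 called 0 of each, and limma-voom called 0 blood and 3 lymphatic genes (Mmrn1, Flt4 and Prox1, all lower). All 10 overlapped between the groups. For Mmrn1 this rested on systemic JAK1i A alone, at 33.7 CPM, while 5 systemic JAK1i libraries lay below every healthy library. Mmrn1 averaged 26.8 ± 3.68 CPM in systemic JAK1i skin and 35.8 ± 6.74 CPM in healthy skin (SD, n = 6 each), with a log2 fold change of -0.42 ± 0.24. Flt4 averaged 19.6 ± 1.35 CPM in systemic JAK1i skin and 24.4 ± 5.63 CPM in healthy skin (-0.31 ± 0.20), and Prox1 9.24 ± 1.81 CPM and 11.8 ± 2.71 CPM in the same order (-0.36 ± 0.24). The 3 lymphatic estimates were thus below 0 and within about 2 standard errors of it, while the blood estimates ran from -0.17 ± 0.20 for Vwf to 0.25 ± 0.21 for Cdh5. A missed threshold does not show that the groups were alike.

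At 8 weeks off treatment the low levels were seen again. Mmrn1 had 2.27, 4.47, 3.16, 5.22, 2.43 and 3.28 CPM in 8w off Tx libraries, all below the lowest systemic JAK1i library of 22.5 CPM. Its log2 fold change of -2.91 ± 0.29 against systemic JAK1i, 7.51-fold lower, was the largest in size of any member in this comparison, and against healthy skin it was -3.32 ± 0.29. Flt4 had 3.57, 2.98, 3.86, 8.28, 3.54 and 5.98 CPM, all below the lowest systemic JAK1i library of 17.5 CPM (-2.04 ± 0.22). Prox1 had 2.92, 2.61, 3.86, 5.76, 2.88 and 2.90 CPM, all below the lowest systemic JAK1i library of 7.10 CPM (-1.38 ± 0.27). Lyve1 and Pdpn again overlapped, with log2 fold changes of -0.96 ± 0.39 and 0.47 ± 0.33.

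Among the blood genes at 8 weeks off treatment, Pecam1 was at 25.4 to 43.8 CPM, Cdh5 at 15.6 to 23.8 CPM, Kdr at 15.1 to 25.4 CPM and Sox17 at 1.86 to 3.42 CPM. Each of these ranges was below the systemic JAK1i range of the same gene, with log2 fold changes between -0.97 ± 0.18 for Pecam1 and -1.44 ± 0.24 for Kdr. Vwf stood apart from them, at 26.1 to 49.0 CPM in 8w off Tx libraries, against 31.1 to 57.9 CPM in systemic JAK1i libraries (-0.29 ± 0.20). Against systemic JAK1i, 4 of 5 blood genes and 3 of 5 lymphatic genes were called lower, beside 16.6% of all genes, and 0 were called higher, beside 19.4%. With the adipocyte covariate described below, 0 of 5 blood genes and 2 of 5 lymphatic genes were called lower. Of all genes, 2323 in place of 5841 were called in either direction with it. Against healthy skin the same counts of 4 and 3 were called lower, beside 15.7% of all genes, and 0 higher, beside 16.9%.

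The 8w off Tx and AA libraries overlapped for all 10 genes, and none was called by edgeR, beside 1.37% of all genes in either direction. At an unadjusted p below 0.05 there were 1 blood and 2 lymphatic genes, and DESeq2 and limma-voom called 0. The estimates did not all point one way. Mmrn1 averaged 3.47 ± 1.16 CPM in 8w off Tx skin and 6.44 ± 3.99 CPM in AA skin (SD, n = 6 each), which gave a log2 fold change of -0.88 ± 0.31. For Prox1 the means were 3.49 ± 1.19 CPM in 8w off Tx skin and 2.01 ± 1.16 CPM in AA skin (log2 fold change 0.78 ± 0.31). The 5 blood genes had estimates above 0, up to 0.54 ± 0.20 for Vwf. In order of mean CPM, healthy and systemic JAK1i skin were the upper groups and AA and 8w off Tx skin the lower ones for 9 of the 10 genes, all but Pdpn. For Lyve1 and Vwf the ranges of the upper and lower groups also overlapped in part. So did Pecam1 between 8w off Tx D, at 43.8 CPM, and healthy B, at 41.3 CPM, and neighbours within the upper or the lower pair overlapped for all 10 genes.

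**Figure D2:**
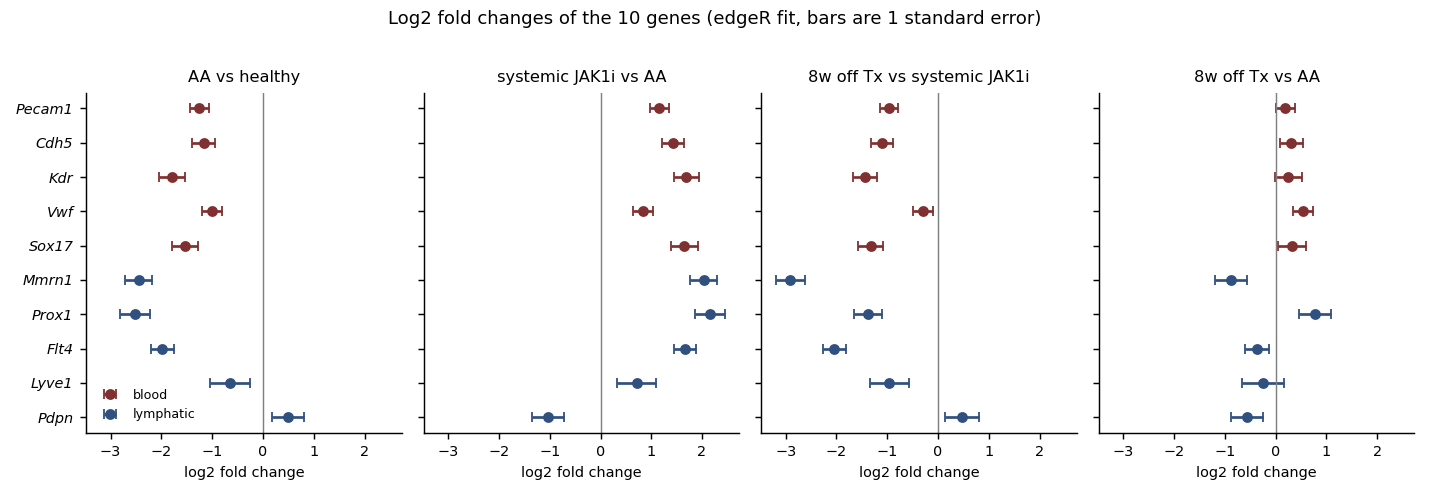
Log2 fold change (x axis) of each of the 10 genes (y axis) in 4 comparisons, with 1 standard error of the edgeR fit as bars, blood genes in red and lymphatic genes in blue. Points lie left of 0 for AA against healthy except Pdpn (0.49), and right of 0 for systemic JAK1i against AA except Pdpn (-1.03). For 8w off Tx against AA they lie on both sides of 0, from -0.88 for Mmrn1 to 0.78 for Prox1.

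Mmrn1, Prox1 and Flt4, picked from the 5 lymphatic genes after their values were seen, lay lower beside the blood genes in 8w off Tx and AA skin than in the other groups. The mean log2 CPM of Mmrn1, Prox1 and Flt4 minus that of the 5 blood genes was -2.36 to -1.72 (median -2.06) in 8w off Tx libraries, -1.36 to -0.68 (median -0.95) in systemic JAK1i libraries, -2.11 to -1.15 (median -1.51) in AA libraries and -0.99 to -0.17 (median -0.59) in healthy libraries. This difference separated 8w off Tx from systemic JAK1i libraries and AA from healthy libraries without overlap. The pattern did not hold over all 5 lymphatic genes. With Lyve1 and Pdpn included the same difference was -2.17 to -1.12 (median -1.96) in 8w off Tx libraries, -1.96 to -0.92 (median -1.30) in systemic JAK1i libraries, -1.43 to -0.85 (median -1.02) in AA libraries and -1.38 to -0.60 (median -1.08) in healthy libraries. On this measure 8w off Tx overlapped systemic JAK1i, AA overlapped healthy, and the AA median was above that of systemic JAK1i. The ratio of Mmrn1 to Cdh5 CPM was 0.142 to 0.270 in 8w off Tx libraries, 0.464 to 0.941 in systemic JAK1i libraries, 0.217 to 0.510 in AA libraries and 0.649 to 1.71 in healthy libraries.

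Within groups, most blood genes varied together. After group means were removed, the log2 CPM of each gene was correlated over the 24 libraries with the mean of the other 4 of its set, as a description (the libraries share depth and scaling). Pearson's r was 0.86 for Pecam1, 0.87 for Cdh5, 0.81 for Kdr, 0.70 for Sox17 and 0.54 for Vwf. For the lymphatic genes it was 0.73 for Mmrn1, 0.57 for Flt4, 0.54 for Pdpn, 0.49 for Prox1 and 0.45 for Lyve1. Healthy B held the lowest value of its group for all 10 genes, AA F for 7 of 10, and 8w off Tx D the highest value of its group for 8 of 10.

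Levels between genes can be compared only per length, and the deposited scales did not give the same order. In TPM (transcripts scaled by length and library size, the authors' values) healthy skin averaged 14.8 for Vwf, 12.5 for Pecam1, 4.30 for Kdr, 4.02 for Pdpn, 3.90 for Cdh5, 3.69 for Mmrn1, 1.90 for Flt4, 1.47 for Lyve1, 1.09 for Sox17 and 0.868 for Prox1. Dividing mean CPM by the exon length gave 11.1 CPM per kb for Pecam1, 8.37 for Cdh5, 8.09 for Pdpn and 3.18 for Vwf, so Vwf was not the highest on that scale. Prox1 and Sox17, the 2 transcription factors, were the lowest on both scales, at 1.41 and 1.23 CPM per kb.

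The wider list of blood endothelial genes, which holds 36 genes outside the 10, moved mostly the same way. This list and those below were drawn up from textbook knowledge with earlier results of these data known, and their genes were tested in the same edgeR fit. In AA against healthy skin 26 were lower and 4 higher at an adjusted p below 0.05, beside 19.3% of all genes lower and 20.9% higher, with a median log2 fold change of -1.08 against 0.00 over all genes. The shares of all genes are the same for the AA against healthy counts of the lists below. Emcn (endomucin), a sialomucin of capillary and venous endothelium, was at 0.793 to 3.91 CPM in AA libraries, against 7.91 to 13.9 CPM in healthy libraries (-2.18 ± 0.24, adjusted p = 6.8e-07). Cldn5, a tight junction protein, was at 2.12 to 5.65 CPM in AA libraries, against 13.2 to 19.5 CPM in healthy libraries (-1.93 ± 0.22, adjusted p = 1e-06). Esam, a junction molecule, fell by 1.35 ± 0.16 (adjusted p = 2e-06) and Plvap, the diaphragm protein of fenestrated capillaries, by 1.13 ± 0.18 (adjusted p = 3.5e-05) on the log2 scale. Cd36 and Egfl7, the list's genes of highest TPM, were lower as well, at -1.34 ± 0.33 (adjusted p = 0.0027) and -0.96 ± 0.19 (adjusted p = 0.00042). Cd36 is a fatty acid carrier that adipocytes and macrophages also make. With the mean log2 CPM of 12 dermal adipocyte genes as a covariate, Cd36 was at 0.07 and Egfl7 at -0.34, neither called. Sox18, a partner of Sox17 in the same family, had a log2 fold change of -0.29 ± 0.28 (adjusted p = 0.42).

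The 4 blood genes that were higher in AA skin were Flt1, Tm4sf1, Sox7 and Sox13. Flt1 (VEGFR-1), a receptor that binds Vegfa and also exists as a soluble form, had 87.7, 136, 55.6, 164, 186 and 96.8 CPM in AA libraries, against 30.3, 78.4, 42.0, 37.6, 31.3 and 48.5 CPM in healthy libraries. It rose by 1.44 ± 0.28 on the log2 scale (adjusted p = 0.00038), while Kdr was lower in the same libraries. With the adipocyte covariate the rise was 0.90 and not called, and on unfiltered log2(TPM + 0.1) it was 1.17 and not called. The ratio of Flt1 to Kdr CPM was 3.13 to 12.9 in 8w off Tx libraries, 0.570 to 0.894 in systemic JAK1i libraries, 1.75 to 19.8 in AA libraries and 0.559 to 2.29 in healthy libraries. The highest healthy ratio, in healthy B, was above the lowest AA ratio, in AA C, while the other 5 healthy libraries were at 0.666 or below. Whether the Flt1 reads come from endothelium or from other skin cells was not tested.

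In the lymphatic list outside the 10 genes, 21 of 22 were measured (Nts did not pass the filter), and 12 were lower and 3 higher in AA than in healthy skin, beside 19.3% and 20.9% of all genes, with a median log2 fold change of -0.64. Ackr4, a scavenging receptor for chemokines such as Ccl21a, fell by 1.87 ± 0.16 on the log2 scale (adjusted p = 7.7e-08). Ackr2, a scavenger of inflammatory chemokines on lymphatic vessels, fell by 2.37 ± 0.27 (adjusted p = 1.4e-06). Reln (reelin), a secreted glycoprotein that collecting lymphatics make, had 17.2, 10.1, 23, 13.1, 22.4 and 6.87 CPM in AA libraries, against 94.1, 63.8, 78.4, 78.1, 86.3 and 84.4 CPM in healthy libraries (-2.38 ± 0.23, adjusted p = 2.1e-07). Gata2, a factor of lymphatic valve formation that mast cells also use, fell by 2.10 ± 0.27 (adjusted p = 3.8e-06). The 3 genes that rose were Gja1, Nrp2 and Maf, which other skin cells also express. Gja1 (connexin 43), with a median of 674 CPM in AA skin and 219 CPM in healthy skin, rose by 1.5 ± 0.21 (adjusted p = 1.1e-05). Stab1, a scavenger receptor of lymphatic endothelium and macrophages and the other gene of highest TPM, had a log2 fold change of 0.49 ± 0.22 (adjusted p = 0.082).

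Ccl21a, the chemokine by which lymphatic endothelium attracts dendritic cells, had a log2 fold change of -2.66 ± 0.74 in counts (adjusted p = 0.0056) in AA against healthy skin, but the symbol belongs to 2 near-identical gene IDs and its value is uncertain. Nearly all counts were given to 1 ID, and the larger part of the TPM to the other. With healthy A and E left out the log2 fold change was -1.66 and no longer passed the test, and healthy A alone held 51.6 CPM beside 1.98 to 14.1 CPM in the other healthy libraries. Summed over both IDs, Ccl21a was at 2.40 to 13.7 TPM in 8w off Tx libraries, 40.2 to 85.8 TPM in systemic JAK1i libraries, 2.62 to 20.7 TPM in AA libraries and 26.1 to 89.5 TPM in healthy libraries. On this summed scale the AA and healthy libraries did not overlap, nor did the 8w off Tx and systemic JAK1i libraries.

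**Figure D3:**
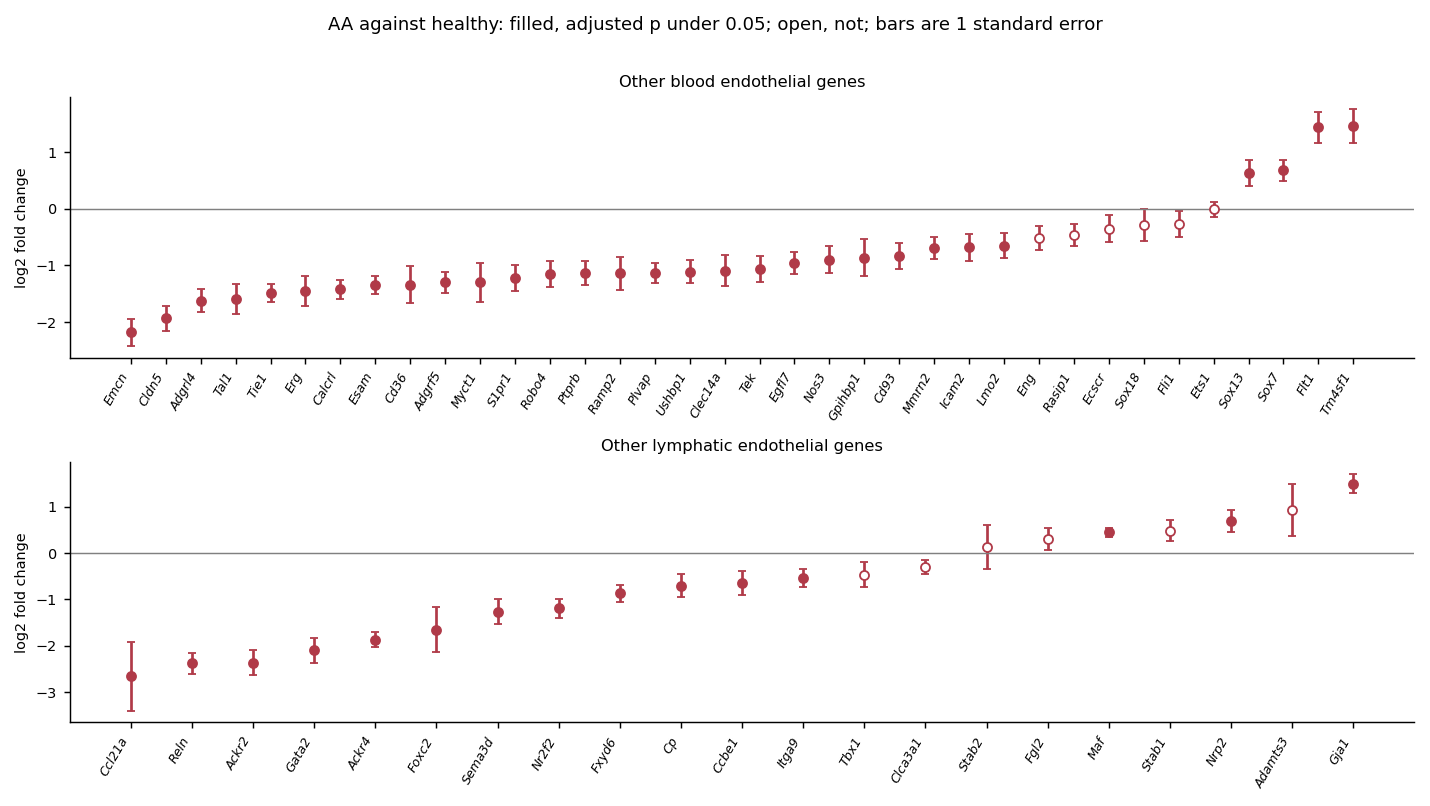
Log2 fold change of AA against healthy skin (y axis, 1 standard error as bars) for the 36 other blood and 21 other lymphatic endothelial genes, ordered by value, with filled points for an adjusted p below 0.05. Most filled points lie below 0 in both panels, and Flt1, Tm4sf1, Sox7 and Sox13 above it among blood genes and Gja1, Nrp2 and Maf among lymphatic genes.

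In the treatment comparisons most called genes of these lists had the opposite direction under treatment and the AA direction again after it. In systemic JAK1i against AA skin 25 blood genes were higher and 3 lower (median log2 fold change 1.17), and 11 lymphatic genes were higher and 2 lower (0.79), beside 22.9% of all genes higher and 24.8% lower. In 8w off Tx against systemic JAK1i skin 3 blood genes were higher and 25 lower (-1.0), and 1 lymphatic gene was higher and 11 lower (-0.70), beside 19.4% of all genes higher and 16.6% lower. Flt1 fell by 1.63 ± 0.28 (adjusted p = 8.7e-05) in systemic JAK1i against AA skin and rose by 1.60 ± 0.28 (adjusted p = 0.00018) in 8w off Tx against systemic JAK1i skin. With the adipocyte covariate the values were -0.95 and 1.10, and on unfiltered log2(TPM + 0.1) -0.88 and 0.32, none of them called. On filtered log2(TPM + 0.1) the rise of 0.32 was not called either. Against healthy skin, where 1.05% of all genes were called in either direction, systemic JAK1i had 1 of 36 blood genes called. This was Plvap (-0.71 ± 0.17, adjusted p = 0.045), and 0 of 21 lymphatic genes were called by edgeR. Of these 21, 6 had an unadjusted p below 0.05, DESeq2 called 1 and limma-voom 7. Plvap had 22.6, 19.9, 28.9, 28, 22.1 and 29.8 CPM in systemic JAK1i libraries, against 37.4, 30.2, 46.9, 52.0, 32.8 and 49.0 CPM in healthy libraries. These groups did not overlap, by less than 1 CPM at the nearest pair, and without healthy A and E no gene of the list was called. In 8w off Tx against AA skin, where 1.37% of all genes were called in either direction, Emcn was called higher (1.01 ± 0.25, adjusted p = 0.041). So was Clca3a1, a chloride channel regulator of the lymphatic list (0.69 ± 0.16, adjusted p = 0.036). Neither was called without 8w off Tx A and E, without a filter on low counts or with only these groups in the fit.

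The ligands that act on these receptors did not move together. Of 23 genes of VEGF and angiopoietin signals, 9 were lower and 3 higher in AA than in healthy skin, beside 19.3% and 20.9% of all genes, with a median log2 fold change of 0.17. These 23 include receptors of the blood list, such as Flt1 and Tie1. A gene that stands on more than 1 list is counted in each, here and in the lists below. Vegfc, the ligand of Flt4, had 1.58, 1.15, 1.96, 0.689, 1.74 and 0.793 CPM in AA libraries, against 6.25, 2.64, 6.63, 7.91, 5.71 and 5.66 CPM in healthy libraries. The groups did not overlap and it fell by 2.09 ± 0.31 on the log2 scale (adjusted p = 1.3e-05). The AA levels of Vegfc were near those of Prox1, which rested on 3 to 25 reads per library, so few reads stand behind them. Vegfc was higher in the treated group. It was at 2.81 to 5.59 CPM in systemic JAK1i libraries (1.84 ± 0.31 against AA, adjusted p = 3.4e-05) and at 0.720 to 2.98 CPM in 8w off Tx libraries (-1.31 ± 0.29 against systemic JAK1i, adjusted p = 0.001). These 2 values were 1.06 and -0.69, and not called, with the adipocyte covariate. Vegfd, the other Flt4 ligand, fell by 0.50 ± 0.18 in AA against healthy skin (adjusted p = 0.031), a call that was lost without AA B, C or E or healthy B and on each TPM scale. It was at 11.5 to 19 CPM in systemic JAK1i libraries, against 6.12 to 11.5 CPM in AA libraries (0.83 ± 0.18, adjusted p = 0.00061).

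Vegfa, the ligand of Flt1 and Kdr, ran the other way. It had 123, 136, 69.5, 77.3, 153 and 122 CPM in AA libraries, against 36.0, 113, 59.5, 50.8, 41.2 and 76.5 CPM in healthy libraries, with overlap because of healthy B. It rose by 0.85 ± 0.26 (adjusted p = 0.011), and the rise was not called without healthy A and E (0.61), with the adipocyte covariate (0.63), on log2(TPM + 0.1) with or without a filter (0.46) or on log2(TPM + 1) (0.44), while on centred TPM (0.72) it was. It fell by 0.89 ± 0.26 in systemic JAK1i against AA skin (adjusted p = 0.0067), but by 0.07, and not called, on the log2(TPM + 0.1) scale. The adipocyte covariate gave -0.60, not called. In 8w off Tx against systemic JAK1i skin it rose by 0.89 ± 0.26 (adjusted p = 0.0096) in CPM, and by 0.67, not called, with the adipocyte covariate, but its sign turned to -0.43 on the log2(TPM + 0.1) scale, on which the median of all genes stood at -1.16. Nrp2, a co-receptor for Vegfc, rose by 0.70 ± 0.24 in AA against healthy skin (adjusted p = 0.025), a call lost without AA A or B or healthy B, without healthy A and E together and on the TPM scales. In 8w off Tx libraries Nrp2 had 54.8 and 63.3 CPM in A and E and 122 to 170 CPM in the other 4.

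The receptors Tie1 and Tek were lower in AA than in healthy skin. Tie1 was at 4.13 to 10.5 CPM in AA libraries, against 17.4 to 25.9 CPM in healthy libraries (-1.48 ± 0.16, adjusted p = 7.8e-07). Tek (Tie2), the receptor of angiopoietins, was at 7.93 to 20.8 CPM in AA libraries, against 14.2 to 45.8 CPM in healthy libraries (-1.07 ± 0.23, adjusted p = 0.00096). The Tek value was -0.05 and not called with the adipocyte covariate. Its ligands Angpt1 and Angpt2 had log2 fold changes of 0.39 ± 0.27 (adjusted p = 0.26; 1.23 and called with the adipocyte covariate) and 0.23 ± 0.14 (adjusted p = 0.18). Angpt1 was higher in systemic JAK1i than in AA skin (0.70 ± 0.26, adjusted p = 0.028, a call lost without AA B, D or E and with the skeletal muscle covariate, and turned to -0.23 with the adipocyte covariate). It was also the 1 gene of this list called between systemic JAK1i and healthy skin, beside 1.05% of all genes in either direction. Angpt1 was at 17.5 to 22.2 CPM in systemic JAK1i libraries, against 4.74 to 18.5 CPM in healthy libraries. Thbs2, a matrix protein that restrains vessel growth, fell by 0.96 ± 0.19 (adjusted p = 0.00045) in AA against healthy skin.

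**Figure D4:**
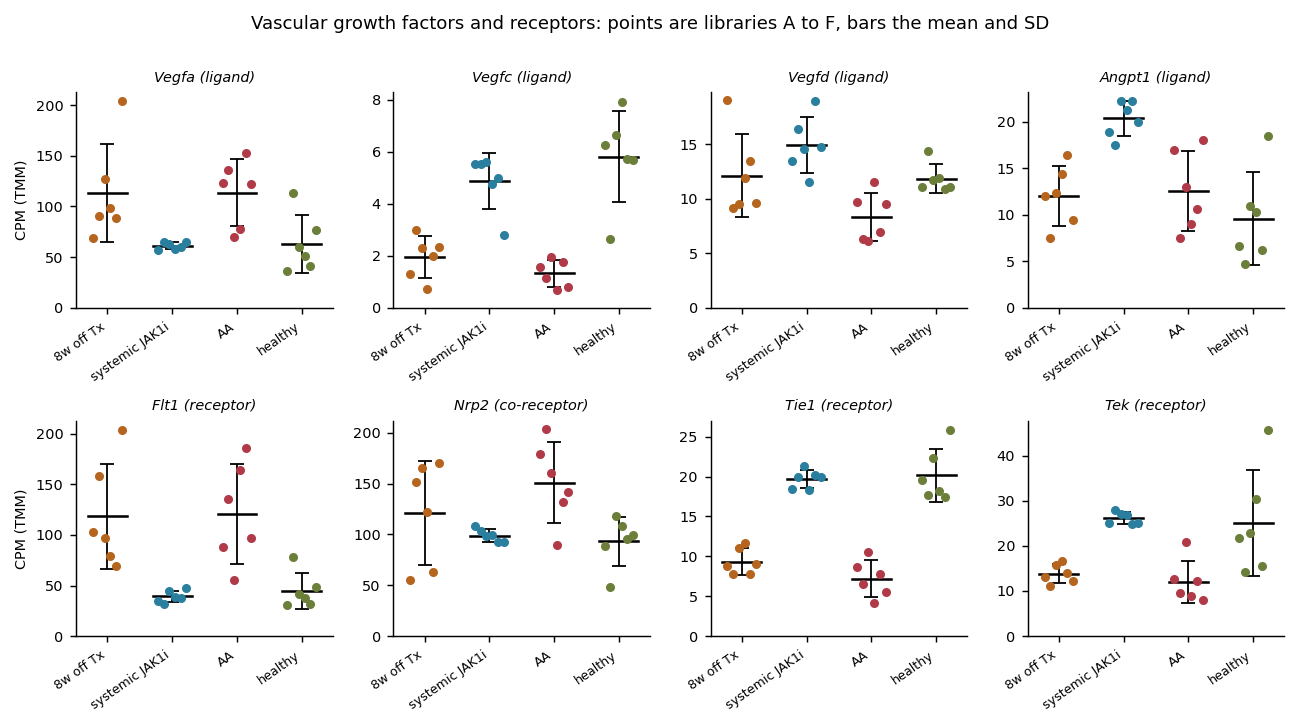
CPM of 4 ligands and 4 receptors or co-receptors in each library (points, A to F), with the mean and SD of 6 libraries as bars, for 8w off Tx, systemic JAK1i, AA and healthy skin. Vegfc and Tie1 follow the low and high bands of the vessel genes, Flt1 and Vegfa have their highest means in 8w off Tx and AA skin, and healthy B stands out at 113 CPM of Vegfa and 78.4 CPM of Flt1.

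Among 13 Notch and arterial genes, 4 were higher and 5 lower in AA than in healthy skin, 5 higher and 4 lower in systemic JAK1i than in AA skin, and 4 higher and 4 lower in 8w off Tx than in systemic JAK1i skin. Of all genes, 20.9% and 19.3%, 22.9% and 24.8%, and 19.4% and 16.6% were higher and lower in these 3 comparisons. Dll4, the endothelial Notch ligand, fell by 0.83 ± 0.30 on the log2 scale in AA against healthy skin (adjusted p = 0.031), a call lost without AA B, D or F or healthy F. It was also lost under the replicate block (-0.77), without healthy A and E (-0.87), on unfiltered log2(TPM + 0.1) (-1.02) and with the adipocyte covariate (-0.13).

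Of 12 genes of veins and leukocyte adhesion 8 passed the filter, and 4 were lower and 2 higher in AA than in healthy skin, beside 19.3% and 20.9% of all genes. Ackr1, the chemokine receptor of venules, fell by 1.80 ± 0.28 (adjusted p = 2.6e-05), Nr2f2, the factor of venous identity, by 1.19 ± 0.20 (adjusted p = 6.6e-05), Ephb4 by 0.40 ± 0.09 (adjusted p = 0.001) and Sele (E-selectin) by 1.69 ± 0.49 (adjusted p = 0.0065). Vcam1 rose by 1.39 ± 0.34 (adjusted p = 0.0023) and Icam1 by 0.77 ± 0.21 (adjusted p = 0.0051), the adhesion molecules that leukocytes bind and that other cells of inflamed skin also make. Neither was called on the log2(TPM + 0.1) or log2(TPM + 1) scale, and with the adipocyte covariate Icam1 (0.58) and Sele (-1.06) were not called. Selp (P-selectin) had a log2 fold change of -0.18 ± 0.38 (adjusted p = 0.75) and Cd74, a chaperone of antigen presentation, 0.47 ± 0.26 (adjusted p = 0.15). Of 13 genes of pericytes and vascular smooth muscle, the cells that wrap vessels, 6 were lower and 0 higher, beside 19.3% and 20.9% of all genes. They included Rgs5 (-1.22 ± 0.22, adjusted p = 0.00015), Kcnj8 (-1.45 ± 0.24, adjusted p = 5.4e-05), Myh11 (-1.86 ± 0.26, adjusted p = 1.5e-05), Mylk (-1.41 ± 0.25, adjusted p = 0.00015) and Pdgfrb (-0.76 ± 0.23, adjusted p = 0.011). With the adipocyte covariate Rgs5 was at -0.48 and Pdgfrb at -0.27, neither called, and Pdgfrb was not called on log2(TPM + 0.1) either. Acta2 and Ndufa4l2 had log2 fold changes of -0.38 ± 0.23 (adjusted p = 0.21) and 0.20 ± 0.32 (adjusted p = 0.65).

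The genes whose pattern was most like the 10 were sought among 15322 genes with a mean log2 CPM of at least 1. For the mean of the 5 blood genes the 5 highest Pearson correlations over the 24 libraries were 0.973 for Tns1, 0.970 for Cavin2, 0.966 for Dlc1, 0.965 for Sparcl1 and 0.964 for Gm45837. Within groups, on deviations from the group means, they were 0.939 for Ptprb, the phosphatase that opposes Tek, 0.892 for Sparcl1, 0.887 for Cavin2, 0.883 for Fgd5 and 0.880 for Lama2. For the mean of the 5 lymphatic genes they were 0.964 for Fam102b, 0.961 for Cpa3, a protease of mast cells, 0.954 for Cd34, a surface protein of vessels and of follicle stem cells, 0.948 for Cadm3 and 0.944 for Il6st. Within groups they were 0.902 for Pdgfra, a fibroblast receptor, 0.901 for Olfml2b, 0.896 for Flrt2, 0.892 for Dab2 and 0.882 for Sdcbp. These are descriptions over libraries that share their groups, depth and scaling.

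Of the lists for other cells and states, 3 were called in full in AA against healthy skin, beside 20.9% of all genes higher and 19.3% lower. The 12 dermal adipocyte genes were all lower in AA than in healthy skin, the 11 measured genes of hair follicle growth and the 12 interferon response genes were all higher, and of 14 macrophage and leukocyte genes 7 were higher and 1 lower. Of 8 platelet and red cell genes measured, 2 were lower, and of 12 keratinocyte and fibroblast genes 4 were lower and 1 higher, and whether these counts depart from those shares was not tested. Skeletal muscle genes, of which 0 of 11 were called by edgeR, DESeq2 or limma-voom and 0 had an unadjusted p below 0.05, differed between libraries of a group, with summed CPM of 257 and 326 in healthy E and A and 3430 to 19900 in the other 4. Without healthy A and E the median log2 fold changes of the blood and lymphatic genes were -1.34 and -1.86 in AA against healthy skin.

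The 8w off Tx libraries were not alike in hair growth genes. Libraries A and E had summed CPM of 227 and 114 for that list, within the systemic JAK1i and healthy range of 51.3 to 696, while the other 4 held 6180 to 14500. Mmrn1 was at 2.27 and 2.43 CPM, Flt4 at 3.57 and 3.54 CPM and Prox1 at 2.92 and 2.88 CPM in libraries A and E, within or below the range of the other 4. Kdr, at 15.2 and 21.2 CPM there, was also below every systemic JAK1i library. Pdpn was lowest in these 2 libraries, at 6.16 and 6.19 CPM beside 9.72 to 24.2 CPM in the other 4. Without A and E the median log2 fold changes of the blood and lymphatic genes in 8w off Tx against systemic JAK1i skin were -1.0 and -1.27, and 1 lymphatic gene (Pdpn) was called higher there.

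The adipocyte list was lower in the same groups as the vessel genes. Its summed CPM was 1810 to 2730 in 8w off Tx libraries, 2820 to 3890 in systemic JAK1i libraries, 1130 to 2500 in AA libraries and 1770 to 8050 in healthy libraries. Its genes include Fabp4, which capillary endothelium also makes. With the list's mean log2 CPM as a covariate, the median log2 fold change in AA against healthy skin was -0.64 for the blood genes (2 of 5 called) and -1.66 for the lymphatic genes (3 of 5 called), and 12 instead of 30 of the other blood genes were called. In systemic JAK1i against AA skin it was 0.47 for the blood genes (0 of 5 called) and 1.25 for the lymphatic genes (3 called higher and 1 lower). In 8w off Tx against systemic JAK1i skin it was -0.42 for the blood genes, with 0 of 5 called in place of 4, and -0.79 for the lymphatic genes, with 2 of 5 called in place of 3. In 8w off Tx against healthy skin it was -0.62 for the blood genes (2 of 5 called in place of 4) and -1.31 for the lymphatic genes (3 called). Calls over all 16248 genes fell too, from 6533 to 3549 in AA against healthy and from 7755 to 2434 in systemic JAK1i against AA skin. They fell from 5841 to 2323 in 8w off Tx against systemic JAK1i and from 5311 to 3713 in 8w off Tx against healthy skin. Calls were thus lost among all genes as well, and whether the vessel genes lost a larger share of theirs was not tested. Healthy B and E held 1770 and 1920 CPM of the adipocyte list, the lowest of their group. Their mean log2 CPM of the 5 blood genes, 4.42 and 4.72, was also the lowest of the group, and that of 8w off Tx D was 4.46. Mmrn1 was at 27.4 and 42.9 CPM and Flt4 at 16.7 and 24.3 CPM in healthy B and E, above every 8w off Tx and AA library. Prox1, at 6.68 and 11.9 CPM there, was as well. This did not hold for all 5 lymphatic genes. In healthy B and E Lyve1 was at 3.69 and 9.18 CPM and Pdpn at 8.96 and 12.2 CPM. The AA ranges of Lyve1 and Pdpn were 2.91 to 6.95 and 10.1 to 33.9 CPM. Healthy B, the lowest of its group in the adipocyte list, was also the lowest of its group for all 10 vessel genes. What part the fat layer, the follicle phase or the interferon response has in the vessel genes was not tested.

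**Figure D5:**
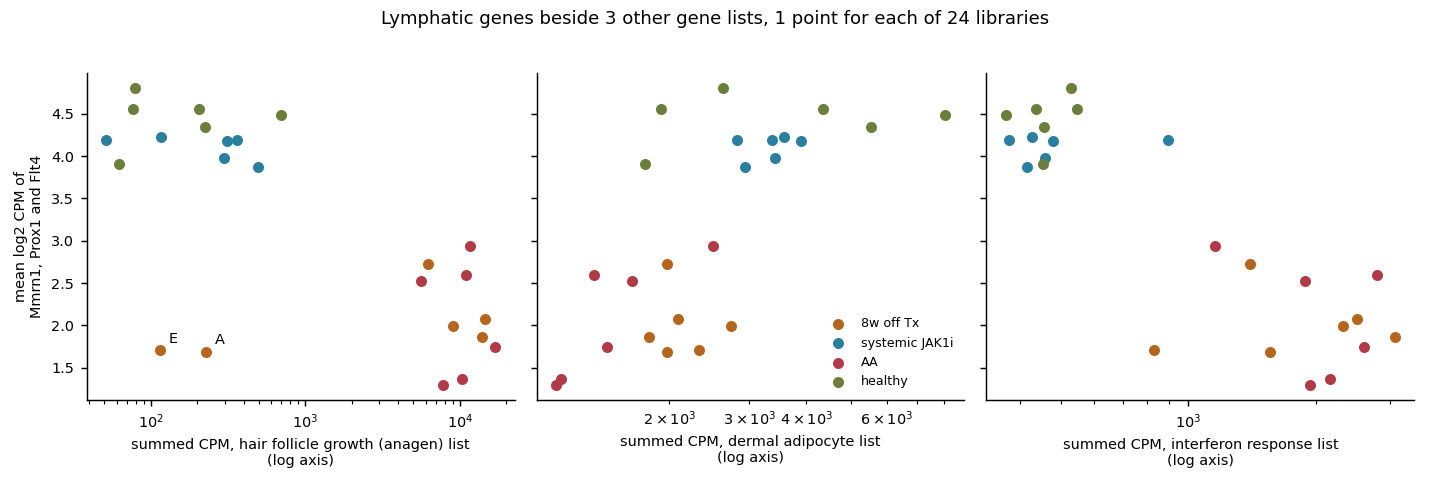
Mean log2 CPM of Mmrn1, Prox1 and Flt4 (y axis) against the summed CPM of 3 other gene lists (x axes, log scale), 1 point for each of 24 libraries coloured by group. These 3 were picked from the 5 lymphatic genes after their values were seen. Lyve1 and Pdpn, which overlapped across all groups, are left out. 8w off Tx A and E sit at low hair follicle growth sums (227 and 114) with low means of Mmrn1, Prox1 and Flt4. Healthy B and E sit at adipocyte sums of 1770 and 1920 with means of these genes of 3.90 and 4.56. Healthy B is the lowest of its group on both measures.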

How the data were processed

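Total RNA from dorsal skin was sequenced in 24 libraries, made per the labels with a ribosomal-depletion kit (the sample descriptions also name poly-A selection). The paper reports low RNA integrity (RIN) values for the mouse RNA and gives them as its reason for this kit and for leaving out fragmentation. How RNA quality bears on the levels given here was not tested. The authors deposited raw read counts per gene and, in a second table, TPM values, transcript levels scaled by length and library size. The submitters' processing notes name HISAT2 2.0.1, featureCounts 1.4.4, bcl2fastq and the mouse builds mm10 and GRCm38. Not given in the sources used here are the annotation release, the strand setting, the treatment of reads with several matches and the tool behind the TPM values. If reads with several matches were dropped, near-identical genes lose counts. There were 6 columns in each table that matched no sample and went unused. Groups were taken from the labels.

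Counts were tested with edgeR 4.0.16 in R 4.3.3, with genes kept by filterByExpr (minimum count 10; 16248 genes), TMM scaling, a quasi-likelihood fit of all 4 groups together and Benjamini-Hochberg adjustment over all genes kept. Standard errors came from that fit. CPM values use the TMM library sizes, and gene symbols came from GENCODE M21 (37693 of 39017 IDs matched). Precision is limited by depth, with totals of 3444193 to 11233020 counts per library and 25 or fewer reads for Prox1 in each AA library. The low RNA quality may limit it further. The method was tested on counts simulated from this same fit, with far fewer genes changed than were called in AA against healthy skin. That test does not show how scaling and calls hold where many genes change.

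The 10 members and all gene lists were chosen with earlier results of these data known. Besides the members, the genes named were, for each list described, up to 4 with the smallest adjusted p and the 2 of highest mean TPM, a set chosen by role, and the 5 most like each member set. Genes outside this rule are Tm4sf1, Sox7, Sox13, Maf and Clca3a1, named after their values were seen because their counts were small. The alternatives were other scalings, filters and fits, DESeq2 1.42.0, limma 3.58.1 with voom weights, and limma on log2(TPM + 0.1) and log2(TPM + 1). Others were the replicate letter as a block, leaving out each library, and, chosen after seeing the data, libraries left out in pairs, centred TPM and 2 covariates. Within each group no pair of libraries agreed within sampling noise. The labels do not say that the 6 libraries of a group came from separate mice, although the study describes 6 mice in each group, so p-values measure the spread between these libraries.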

Additional observations from a re-analysis of the deposited data

Results flagged for a closer look

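In the 40 groups of 6 CPM values (10 genes in 4 groups), 2 held a library that stood apart by Dixon's test, where chance gives about 1 in 20. Mmrn1 in systemic JAK1i A was at 33.7 CPM, with the next highest library of the group at 26.6 CPM. Prox1 in healthy B was at 6.68 CPM, with the next lowest at 11.9 CPM. Healthy B was the lowest of its group for all 10 genes.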

How the results depend on the processing

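The replicate letters did not pair the libraries: of 36 same-letter pairs 12 had a correlation of deviations above 0.1 and 13 below -0.1, and 5 libraries had their best partner under the same letter. With the replicate block the medians of the blood and lymphatic members in AA against healthy skin were -1.22 and -1.97, and 6256 genes were called. In systemic JAK1i against healthy skin the replicate block gave 104 genes in place of 170, and in 8w off Tx against AA skin 0 blood and 0 lymphatic genes of the wider lists in place of 1 each.

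The medians of the members kept their direction in AA against healthy, systemic JAK1i against AA, 8w off Tx against systemic JAK1i and 8w off Tx against healthy skin under every alternative run. Unscaled TPM moved the median of all genes: on log2(TPM + 0.1) it stood at -0.29 in AA against healthy, 0.65 in systemic JAK1i against AA, 0.34 in systemic JAK1i against healthy, -1.16 in 8w off Tx against systemic JAK1i, -0.51 in 8w off Tx against AA and -0.80 in 8w off Tx against healthy skin, so values on TPM scales are to be read against these. The cause was not tested.

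AA against healthy, where 6533 genes, 30 other blood and 15 other lymphatic genes were called: log2(TPM + 0.1) gave 2628 genes and 9 lymphatic genes. Without a filter it gave 2459, 18 blood and 9 lymphatic genes. On log2(TPM + 1) there were 2886 genes and 9 lymphatic genes, with medians of -0.87 for blood and -0.66 for lymphatic members. Centred TPM gave a lymphatic median of -1.52. The adipocyte covariate gave 3549 genes, 12 blood genes and a blood median of -0.64, and turned Cd36 to 0.07. Ccl21a, read from 1 of its IDs, turned to 0.83 on log2(TPM + 0.1) with or without a filter, 0.33 on log2(TPM + 1) and 1.09 on centred TPM.

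Systemic JAK1i against AA, where 7755 genes were called: the blood median was 1.91 on log2(TPM + 0.1) with or without a filter, and the lymphatic median 0.64 on log2(TPM + 1) and 1.21 on centred TPM. Nrp2 turned to 0.13 on log2(TPM + 0.1), with or without a filter, and 0.10 on log2(TPM + 1), and Ccl21a to -0.17 on centred TPM. The adipocyte covariate gave 2434 genes, 11 blood genes in place of 28, medians of 0.47 and 1.25, and turned Angpt1 to -0.23, Ndufa4l2 to 0.38 and Tek to -0.07.

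Systemic JAK1i against healthy, where 170 genes were called: 105 were called with no filter on low counts, 286 with only these groups in the fit, 602 by DESeq2, 1978 by limma-voom, 455 on log2(TPM + 1), 66 on log2(TPM + 0.1) without a filter, 12 without healthy A and E, 280 without 8w off Tx A and E and 95 with the skeletal muscle covariate. The blood median was 0.41 on log2(TPM + 0.1), with or without a filter, and 0.35 on log2(TPM + 1). Of the other blood genes 4 were called by limma-voom and 0 with no filter on low counts, on log2(TPM + 0.1) in its 3 forms, without healthy A and E and with the skeletal muscle covariate. Of the other lymphatic genes 2 were called with only these groups in the fit, 1 by DESeq2, 7 by limma-voom and 1 on log2(TPM + 1).

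8w off Tx against systemic JAK1i, where 5841 genes were called: log2(TPM + 0.1) gave 14142 genes, 18597 without a filter, and log2(TPM + 1) 14181. The blood and lymphatic medians were -2.21 and -1.95 on log2(TPM + 0.1), with or without a filter, and -1.60 and -0.95 on log2(TPM + 1), and the lymphatic median was -0.80 on centred TPM. On log2(TPM + 0.1), with or without a filter, and log2(TPM + 1), Icam1 turned to -0.33 and -0.26, Ndufa4l2 to -0.35 and -0.33, Nrp2 to -1.01 and -0.86 and Vegfa to -0.43 and -0.40. Ccl21a turned to 0.62 on centred TPM. The adipocyte covariate gave 2323 genes, 8 blood and 7 lymphatic genes, medians of -0.42 and -0.79, and turned Ndufa4l2 to -0.18, Stab1 to 0.00 and Tek to 0.02.

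8w off Tx against AA, where 222 genes were called: 111 were called with no filter on low counts, 18 with only these groups in the fit, 628 by DESeq2, 1074 on log2(TPM + 0.1), 384 without a filter, 978 on log2(TPM + 1), 122 without 8w off Tx A and E and 341 with the adipocyte covariate. The blood median was -0.29 on log2(TPM + 0.1), with or without a filter, and -0.16 on log2(TPM + 1), and the lymphatic median -0.80 on log2(TPM + 0.1), with or without a filter. Of the other blood genes 0 were called with no filter on low counts, with only these groups in the fit, on the TPM scales, without healthy A and E, without 8w off Tx A and E and with the skeletal muscle covariate. Of the other lymphatic genes DESeq2 called 2, and 0 were called under those settings other than filtered log2(TPM + 0.1), filtered log2(TPM + 1) and without healthy A and E. In 8w off Tx against healthy skin 11669 genes were called on log2(TPM + 0.1), 12593 without a filter and 11492 on log2(TPM + 1), where 5311 were called in counts. The blood median there was -1.58 on log2(TPM + 0.1), with or without a filter, the lymphatic median -0.75 on log2(TPM + 1) and -1.20 on centred TPM, and the adipocyte covariate gave medians of -0.62 and -1.31 and 13 blood genes.

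With each library left out in turn, systemic JAK1i against healthy skin gave 49 to 704 genes (49 without healthy A, 704 without healthy F), 0 to 1 other blood genes and 0 to 2 other lymphatic genes. For 8w off Tx against AA skin the counts were 68 to 493 genes (68 without AA B, 493 without 8w off Tx B), 0 to 1 other blood genes and 0 to 2 other lymphatic genes. Depth limits the low genes most, Prox1 and Sox17 among the members.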
